A study of Mus musculus with 30 samples.

Results

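Levels of 10 genes of blood vessel growth and of the endothelium of the choroid, the vascular bed behind the retina, were followed through the retinal pigment epithelium (RPE) and bone marrow-derived macrophages (BMDMs) of 4 mouse genotypes. The 10 genes were chosen by name, and each matched 1 of the 55573 rows of the RPE table and 1 row of the BMDM table. They comprise the secreted factors Vegfa, Serpinf1, Pgf and Angpt2, the receptors Kdr, Flt1 and Tek, and the endothelial surface genes Pecam1, Cdh5 and Plvap. RNA was sequenced in 18 RPE libraries at postnatal day 25 (6 of B6 WT, 6 of Mertk-/-V1, 3 of Mertk-/-V2, 3 of Mertk-/-V3), and in 3 libraries of each genotype of BMDMs after 7 days in L929-conditioned medium. The labels number the libraries of a group as biological replicates, and the study's methods tie every data point to its own animal. Replicate numbers 4 to 6 exist in RPE for B6 WT and Mertk-/-V1 alone. Mertk-/-V1 mice carry a deletion in the kinase domain of Mertk that was made in 129P2 embryonic stem cells. They keep the neomycin cassette and a 129P2 segment of chromosome 2 after backcrossing to C57BL/6J. In Mertk-/-V2 mice a floxed kinase-domain exon was removed in the germline with Rosa26 ERT2-Cre, which was then bred out. Mertk-/-V3 mice carry a frameshift deletion made with CRISPR in C57BL/6NJ eggs, and both of these lines have mixed C57BL/6J and C57BL/6NJ background. B6 WT mice carry none of these alleles.

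VEGF-A is the main growth and survival factor of blood vessels, and the RPE releases it towards the choroid, whose fenestrated capillaries depend on it. PlGF binds only the VEGF receptor FLT1, whereas VEGF-A binds FLT1 and KDR, of which KDR carries most of the growth signal and FLT1 largely acts as a decoy. PEDF, the product of Serpinf1, opposes vessel growth, and angiopoietin 2 modulates TIE2, the receptor encoded by Tek. PECAM-1 and VE-cadherin (Cdh5) join endothelial cells to one another, and PLVAP forms the diaphragms of fenestrated capillaries such as the choriocapillaris.

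The RPE was shaken off the posterior eyecup, so other cells of the eyecup could enter the sample. Libraries held 14137666 to 34124049 reads on genes in RPE and 16629659 to 25653814 in BMDMs. Values are normalized counts, that is reads divided by a DESeq2 size factor for each library. Mertk lay between 919 and 1717 normalized counts in Mertk-/-V1 RPE, 444 and 1106 in Mertk-/-V3 RPE, 2638 and 3924 in B6 WT and 3566 and 5311 in Mertk-/-V2, so the count of the whole gene does not check the label of Mertk-/-V2. All 12 RPE marker genes were measured, and the mean log2 level of this list was 13.7 to 14.5 in 15 RPE libraries but 12.7 to 13.1 in Mertk-/-V1 replicates 5 and 6 and Mertk-/-V3 replicate 1. In those 3 libraries the mean of 10 rod photoreceptor markers was 14.1 to 15.2, against 10.9 to 14.1 in the other 15. All 20 endothelial markers other than the 10 genes were also measured in RPE, with a mean log2 level of 7.06 to 8.47, while 7 of the 20 had no read in any BMDM library. RPE markers, as the label asks, stood beside rod, fibroblast and endothelial RNA in all 18 libraries. In such bulk samples, fewer cells of a type and less RNA per cell cannot be told apart.

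Vegfa was by far the most abundant of the 10 transcripts in RPE. Per unit of transcript length (TPM, a length-scaled share of all transcripts) its median over the 18 libraries was 303 (range 229 to 551). Plvap followed with 59.6 and Serpinf1 with 55.5, and these neighbours overlapped, Plvap being the higher in 12 of 18 libraries. Kdr and Cdh5 (both 15.6) could not be ordered, since Kdr was higher in 8 of 18 libraries. Below them came Pgf (12.1), Pecam1 (10.5), Tek (9.93) and Flt1 (9.27), whose ranges overlapped. Angpt2 was lowest at 2.98, below Flt1 in 18 of 18 libraries. The ratio of Vegfa to Serpinf1 per length, a ligand that promotes vessels over one that opposes them, lay between 3.30 and 7.81 with a median of 5.87. These levels use the length of all exons of a gene and do not separate isoforms, among them the soluble and membrane forms of FLT1.

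The genes lie on 6 chromosomes of GRCm38 in GENCODE release 21, and all are protein-coding. Vegfa is at chr17:46016993-46032369, Serpinf1 at chr11:75409769-75422701, Pgf at chr12:85166635-85177790 and Angpt2 at chr8:18690263-18741562, all on the minus strand. Kdr (chr5:75932827-75978458), Flt1 (chr5:147561604-147726011), Pecam1 (chr11:106654217-106750628) and Plvap (chr8:71497765-71511752) are also on the minus strand. Tek (chr4:94739289-94874976) and Cdh5 (chr8:104101625-104144511) are on the plus strand. None lies on chromosome 2, which carries the 129P2 segment of Mertk-/-V1.

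RefSeq promoters (GRCm38.p6) were at hand for 6 of the 10 genes. The 120 bases that end at the base before the start site are shown for the 3 receptors, because Kdr and Flt1 varied together and Tek followed the other endothelial genes. Capitals mark GGAA, the core bound by ETS factors, on either strand (TTCC on the other), with no overlap between the matches shown.
Kdr, chr5:75978456-75978575, minus strand: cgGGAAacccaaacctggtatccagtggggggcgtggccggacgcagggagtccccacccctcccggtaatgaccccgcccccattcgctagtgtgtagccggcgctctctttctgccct
Flt1, chr5:147726012-147726131, minus strand: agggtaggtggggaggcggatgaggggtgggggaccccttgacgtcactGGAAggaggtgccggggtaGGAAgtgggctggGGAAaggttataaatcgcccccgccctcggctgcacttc
Tek, chr4:94739169-94739288, plus strand: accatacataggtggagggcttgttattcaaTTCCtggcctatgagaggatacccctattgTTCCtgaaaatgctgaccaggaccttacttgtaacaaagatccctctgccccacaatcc
In the 250 bases upstream, Kdr and Flt1 each held 4 matches and Tek held 2. GGAA is common: 93.4% of 32851 mouse promoters of the same length hold it, 33.4% hold at least 4 and 76.8% hold at least 2, so the matches describe these windows and single out none of them. Among the secreted factors, Vegfa held 6 matches in 1 window (8.69% of promoters hold at least 6) and 2 in another. Serpinf1 held 2 and Pgf 0, so the motif is not particular to the receptors.

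Vegfa in RPE ranged from 10438 to 13548 normalized counts in B6 WT (median 11559) and from 6775 to 13572 in Mertk-/-V1 (median 9374). It stood at 13016, 11919 and 9706 in Mertk-/-V2 and at 8674, 16058 and 18197 in Mertk-/-V3. In all, 5 of 6 Mertk-/-V1 libraries fell below the lowest B6 WT library, 2 of 3 Mertk-/-V3 libraries lay above the highest, and the groups overlapped. The 2 lowest Mertk-/-V1 libraries and the lowest Mertk-/-V3 library were the 3 with low RPE markers. Over 18 libraries Vegfa followed the RPE list (Pearson's r = 0.80, Spearman's rho = 0.76, permutation p adjusted over 40 relations = 6.67e-05 and 0.00207), and r was 0.64 without the 2 libraries farthest from the median of the list and 0.59 without the 3 libraries. Among the first 3 replicates of B6 WT with Mertk-/-V1, replicates 4 to 6 of both, and Mertk-/-V2 with Mertk-/-V3, 6 libraries each, r was 0.81, 0.95 and 0.69. With genotype means subtracted it was 0.88. The list relations were chosen after seeing the data, and their permutations ignore genotype and set of replicates.

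The endothelial level, defined as the mean log2 level of Kdr, Tek, Pecam1, Cdh5 and Plvap, had no relation to Vegfa that passed the test over the same libraries (r = 0.07, rho = 0.08, permutation p adjusted over 7 relations = 0.788 and 0.760). It was 0.31 with genotype means subtracted (adjusted permutation p = 0.286) and 0.27 with Kdr left out of the level (adjusted permutation p = 0.383), and 0.56 with both, which was not tested. With genotype means subtracted, Vegfa correlated with Cdh5 at 0.62 and with Plvap at 0.63, against 0.36 and 0.34 without. Values of r in sets of libraries were spread widely, with r = -0.15 in replicates 1 to 3, -0.02 in replicates 4 to 6 and 0.85 in Mertk-/-V2 with Mertk-/-V3. The genes closest to Vegfa over the 18 libraries, among genes with a mean of at least 10, included Gm534 (r = 0.97), Appl2 (0.96), Gm5148 (0.96) and Gm45895 (0.95). None of these 4 is an endothelial marker of the list.

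Serpinf1, the PEDF gene, ran from 741 to 1088 normalized counts in B6 WT RPE (median 1041) and from 822 to 1460 in Mertk-/-V1 (median 1117). Its values were 1457, 1058 and 1621 in Mertk-/-V2 and 676, 1163 and 1453 in Mertk-/-V3. All groups overlapped. Serpinf1 followed the 8 fibroblast genes, which include the fibrillar collagens Col1a1 and Col3a1 (r = 0.88, rho = 0.70, adjusted permutation p = 6.67e-05 and 0.0106), with r = 0.94 without the 3 libraries and 0.79 without the 2 farthest. Within the 3 sets r was 0.92, 0.59 and 0.96. With the RPE list Serpinf1 had r = 0.42 (adjusted permutation p = 0.158), and -0.13 without the 3 libraries. Within the 3 sets this r was spread widely, at -0.50, 0.49 and 0.89, and with genotype means subtracted it was 0.57. Its closest genes were Mxra8 (0.93), Adamts2 (0.92), C1s1 (0.92), Mgp (0.91) and Ccdc80 (0.90), of which Adamts2 processes fibrillar procollagen and Mgp encodes a matrix protein.

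Pgf, the PlGF gene, lay between 234 and 341 normalized counts in B6 WT (median 284) and between 180 and 384 in Mertk-/-V1 (median 270). It was 443, 327 and 305 in Mertk-/-V2 and 171, 365 and 404 in Mertk-/-V3. Pgf moved with Serpinf1 (r = 0.81 over 18 libraries, 0.70 without the 3). It correlated with both the RPE list (r = 0.69) and the endothelial list (r = 0.67), and without the 3 libraries these values were 0.09 and 0.65. Angpt2 was 69.0 to 131 in B6 WT (median 89.9), 69.2 to 142 in Mertk-/-V1 (median 83.6), 140, 122 and 97.2 in Mertk-/-V2 and 69.2, 82.3 and 80.2 in Mertk-/-V3. None of its 4 list correlations reached 0.4 in size.

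**Figure D1:**
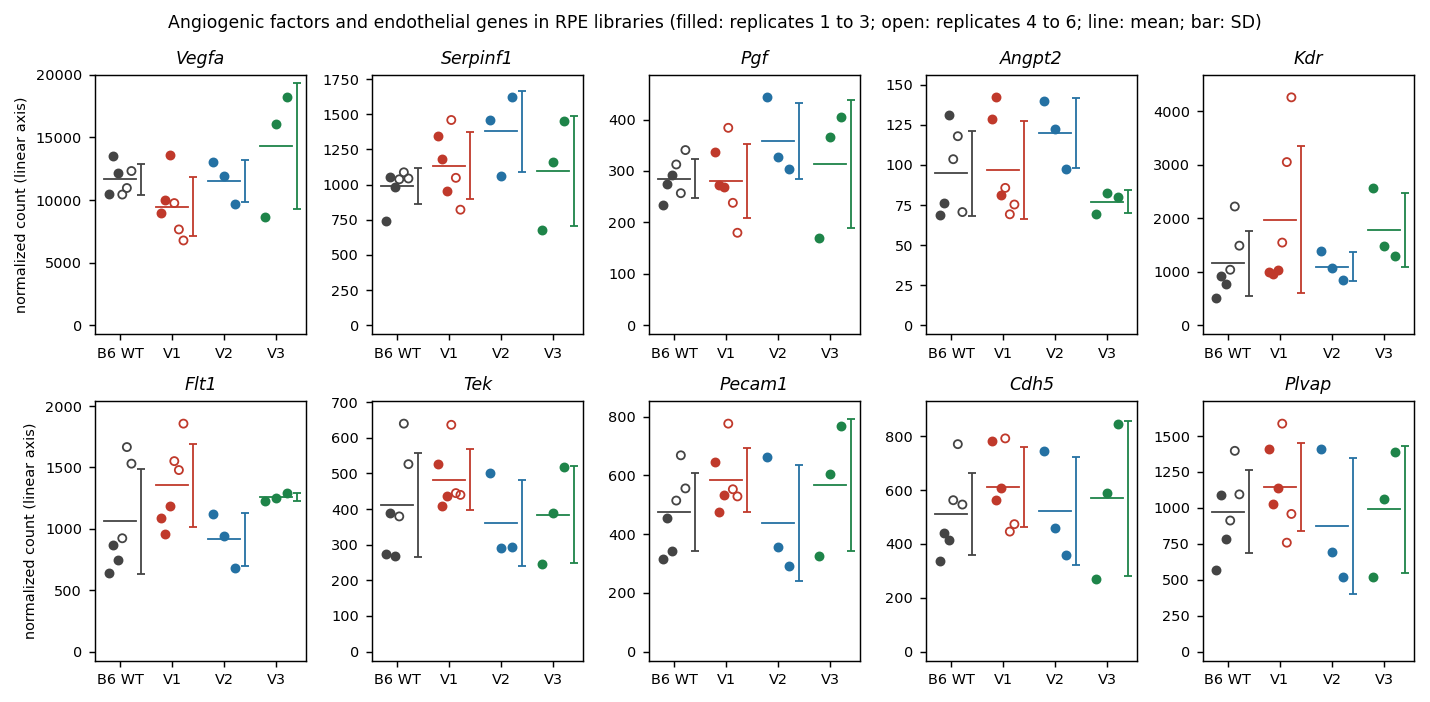
Normalized counts (linear axis from about 0) of the 10 genes in every RPE library of the 4 genotypes; filled points are replicates 1 to 3, open points replicates 4 to 6, lines the mean and bars the SD. The groups overlap for each gene, and the 2 highest Kdr points (3053 and 4264) are Mertk-/-V1 replicates 5 and 6.

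Tek, Pecam1, Cdh5 and Plvap rose and fell together across libraries. Their 6 pairwise correlations lay between 0.87 and 0.94 over 18 libraries, and each correlated with the 20 other endothelial markers at 0.91 to 0.93. Without the 3 libraries of low RPE markers the correlations with the list were 0.89 to 0.94, and within each set of 6 libraries they were 0.82 to 0.99. Cdh5 spanned 336 to 771 normalized counts in B6 WT (median 493), with a range of 446 to 792 in Mertk-/-V1 (median 586). In Mertk-/-V2 it was 745, 459 and 359 and in Mertk-/-V3 271, 589 and 847, so replicates of 1 genotype differed 3.12-fold at the most, which is also the span of all 18 libraries.

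Plvap counts ran from 568 to 1397 in B6 WT (median 1001) and from 758 to 1586 in Mertk-/-V1 (median 1083), with 1408, 693 and 519 in Mertk-/-V2 and 518, 1065 and 1388 in Mertk-/-V3. Pecam1 was 314 to 668 in B6 WT (median 484.0), 476 to 776 in Mertk-/-V1 (median 542), 662, 356 and 292 in Mertk-/-V2 and 325, 606 and 768 in Mertk-/-V3. Tek was 267 to 640 in B6 WT (median 384), 409 to 636 in Mertk-/-V1 (median 442), 501, 289 and 294 in Mertk-/-V2 and 245, 388 and 518 in Mertk-/-V3. In each of these 4 genes replicate 1 was the highest Mertk-/-V2 library and the lowest Mertk-/-V3 library. The genes closest to the 5-gene endothelial level were Flt4 (r = 0.94), Plxnd1 (0.93), Adgrf5 (0.93), Ptprb (0.92) and Cd93 (0.90), which are all known endothelial genes.

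Kdr departed from the other endothelial genes. It ranged from 505 to 2223 normalized counts in B6 WT (median 979) and from 962 to 4264 in Mertk-/-V1 (median 1295), with 1388, 1070 and 841 in Mertk-/-V2 and 2574, 1479 and 1294 in Mertk-/-V3. Its highest 3 values, 4264, 3053 and 2574, were in the 3 libraries of low RPE and high rod markers, whose Cdh5 values were 473, 446 and 271. The ratio of Kdr to Cdh5 counts reached 9.49 there, against a median of 2.02 over all libraries. Over 18 libraries Kdr correlated with the rod list (r = 0.85, rho = 0.77, adjusted permutation p = 0.000114 and 0.00168) and inversely with the RPE list (r = -0.82), and r with the endothelial list was 0.23 (adjusted permutation p = 0.544). Without the 3 libraries, r was 0.88 with the endothelial list, 0.72 with the rod list and -0.39 with the RPE list. Within the 3 sets, Kdr and the endothelial list had r = 0.91, -0.38 and -0.25. Kdr and the rod list had 0.65, 0.84 and 0.49.

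The genes closest to Kdr, looked up after its values were seen, were Syt15 (0.97), Car8 (0.96), Dlc1 (0.96), Gnb3 (0.95) and Rnd1 (0.95). Gnb3 encodes the G protein beta subunit of cones and bipolar cells of the retina. What share of Kdr RNA came from retinal cells was not tested.

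Flt1 lay between the patterns of Kdr and the endothelial panel. It was 639 to 1666 normalized counts in B6 WT (median 896), 961 to 1856 in Mertk-/-V1 (median 1332), 1118, 939 and 682 in Mertk-/-V2 and 1229, 1247 and 1296 in Mertk-/-V3. Flt1 correlated with Kdr at 0.86 and with the endothelial list at 0.59, and without the 3 libraries these were 0.92 and 0.90. Within the 3 sets r with the endothelial list was 0.89, 0.26 and 0.41. Flt1 also correlated with the rod list (r = 0.62, adjusted permutation p = 0.0182) and inversely with the RPE list (r = -0.59, adjusted permutation p = 0.026). Against the 5-gene endothelial level it gave r = 0.84 and rho = 0.82 (adjusted permutation p = 0.000105 and 0.00014). With Kdr taken out of that level, an alternative chosen after seeing the data, r was 0.62 (adjusted permutation p = 0.022). Within the 3 sets it was then 0.93, 0.32 and 0.54.

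**Figure D2:**
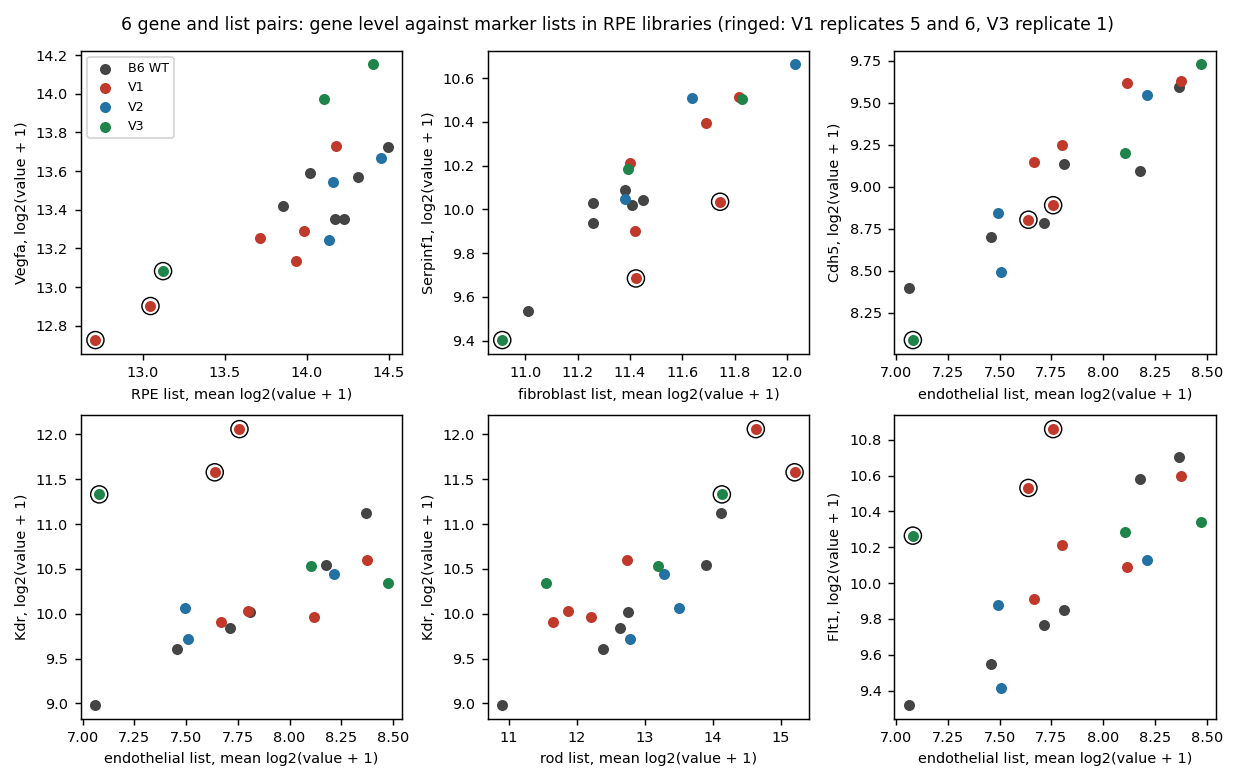
Log2 levels of Vegfa, Serpinf1, Cdh5, Kdr and Flt1 (vertical axes) against mean log2 levels of marker lists (horizontal axes) in the 18 RPE libraries, coloured by genotype, with the 3 libraries of low RPE markers ringed. Cdh5 follows the endothelial list in all libraries (r = 0.93), whereas the ringed libraries lie above the other libraries of like endothelial level for Kdr and Flt1.

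**Figure D3:**
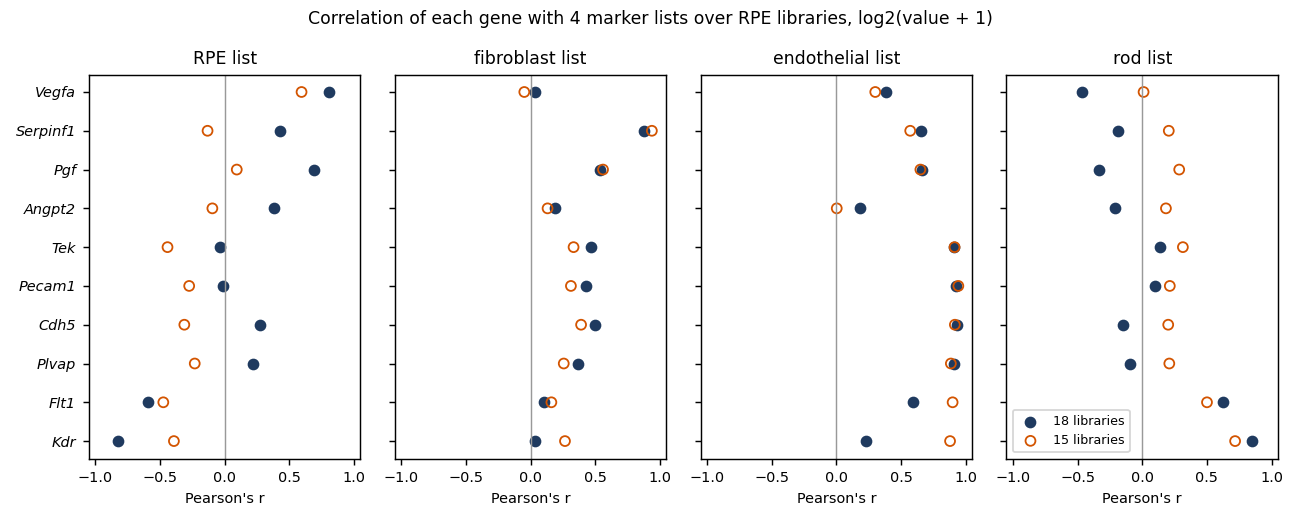
Pearson's r (horizontal axes, -1 to 1) of each gene with the RPE, fibroblast, endothelial and rod lists over 18 RPE libraries (filled) and over the 15 without the ringed ones (open). Tek, Pecam1, Cdh5 and Plvap lie at 0.91 to 0.93 with the endothelial list in the 18 libraries, and Kdr moves from 0.23 to 0.88.

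No gene of the 10 passed an adjusted p of 0.05 in RPE in any of the 3 knockouts against B6 WT, nor in Mertk-/-V1 against the other knockouts averaged (limma, adjusted over all genes tested). Over 18832 genes tested the shares past this threshold were 0.388% for Mertk-/-V1, 0.069% for Mertk-/-V2, 0.069% for Mertk-/-V3 and 0.207% in the fourth comparison. At an unadjusted p under 0.05 the count of the 10 was 0 for Mertk-/-V1, 0 for Mertk-/-V2, 0 for Mertk-/-V3 and 1 in the fourth comparison (Vegfa, -0.44, SE 0.18). Shares of all genes at that unadjusted cut are not given here, so nothing is read from these counts. At the adjusted threshold edgeR and DESeq2 also gave 0 in each comparison. For each of the 10 genes the knockout libraries overlapped with B6 WT, and the groups did not overlap for 1.09%, 5.66% and 4.32% of all genes tested. The median log2 fold change of the 10 was 0.26 for Mertk-/-V1, -0.004 for Mertk-/-V2 and 0.07 for Mertk-/-V3, and the medians of all genes were 0.02, 0.02 and -0.01.

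Vegfa differed from B6 WT by -0.33 (SE 0.18, adjusted p = 0.774) on the log2 scale in Mertk-/-V1, -0.02 (SE 0.22) in Mertk-/-V2 and 0.23 (SE 0.22) in Mertk-/-V3. Kdr had the widest errors, with 0.67 (SE 0.40) in Mertk-/-V1 and 0.71 (SE 0.49) in Mertk-/-V3, and the 3 libraries of low RPE markers belong to these groups. Leaving those 3 libraries out gave 0 calls in each comparison and moved the Kdr difference to 0.11 in Mertk-/-V1 and 0.42 in Mertk-/-V3. Over all alternatives the Kdr difference ran from 0.11 to 0.89 in Mertk-/-V1 and from 0.17 to 1.35 in Mertk-/-V3. Within replicates 1 to 3 and within replicates 4 to 6 the Mertk-/-V1 difference of Kdr was 0.49 and 0.85 (adjusted p = 0.599 and 0.590), with 0 of the 10 genes called in either. Against B6 WT replicates 1 to 3 alone the Mertk-/-V3 difference of Kdr was 1.26 (adjusted p = 0.077), and against replicates 4 to 6 alone 0.17. With the replicate number as a block, Kdr (1.35, adjusted p = 0.00602) and Flt1 (0.69, adjusted p = 0.0182) passed in Mertk-/-V3, where the block called 29.8% of all genes. Array quality weights, which count libraries that stand apart for less, called 7 of the 10 genes in Mertk-/-V3, all higher, with Vegfa at 0.44 (adjusted p = 0.000695), and called 66.9% of all genes tested there.

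**Figure D4:**
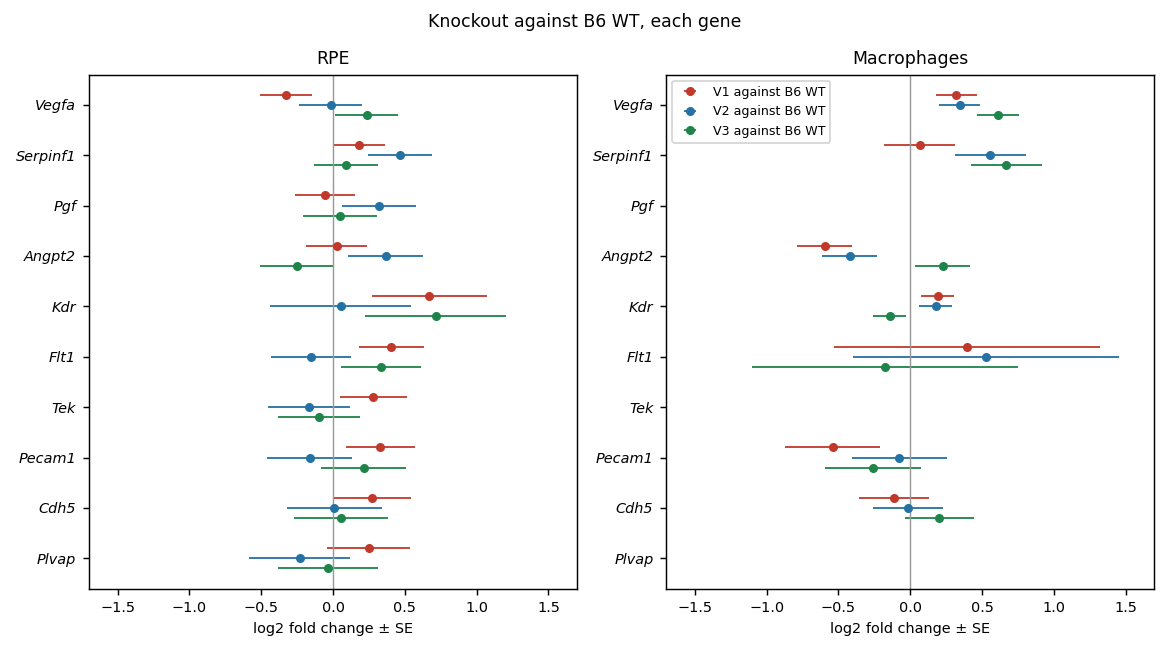
Log2 fold change of each knockout against B6 WT (horizontal axes, points with SE bars) for the genes tested in RPE (left) and BMDMs (right); Pgf, Tek and Plvap were below the level tested in BMDMs. The RPE values lie between -0.33 and 0.71, and none passed the adjusted p of 0.05.

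The 6 B6 WT and 6 Mertk-/-V1 RPE libraries were also compared by replicate number, since replicates 4 to 6 stood apart from replicates 1 to 3 across the transcriptome: 40.8% of 18795 genes passed the threshold. Of the 10 genes, 3 did, a share no higher than that background. Kdr was higher in replicates 4 to 6 by 1.26 (SE 0.25, adjusted p = 0.0074), with means of 733 ± 210 and 1584 ± 597 normalized counts in B6 WT (SD, n = 3) and 1001 ± 39.8 and 2955 ± 1361 in Mertk-/-V1 (SD, n = 3). Flt1 was higher by 0.71 (SE 0.14, adjusted p = 0.0074) and Pecam1 by 0.41 (SE 0.15, adjusted p = 0.0472). All 10 rod markers rose in replicates 4 to 6, with a median of 2.06, and 9 of 12 RPE markers fell, with a median of -0.68. All 5 erythroid markers fell, with a median of -2.02, and 3 of 6 glial markers rose. Of 19 endothelial markers tested 4 rose and 1 fell, with a median of 0.38. The part of erythroid and glial RNA in these calls was not tested. With the rod list as a covariate, an alternative chosen after seeing the data, none of the 10 genes passed. The call of Pecam1 was lost when any of B6 WT replicates 1, 3, 4, 5 or 6 or Mertk-/-V1 replicates 2, 3 or 4 was left out (adjusted p up to 0.107). The labels give no reason for this split.

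Among 20 other genes of VEGF, angiopoietin and Notch signalling in RPE, 1 passed in Mertk-/-V1 and 0 in Mertk-/-V2 or Mertk-/-V3. It was Angptl4, a secreted inhibitor of lipoprotein lipase that also acts on vessels, which fell by 1.34 (SE 0.25, adjusted p = 0.0239). Angptl4 was 430 to 1237 normalized counts in B6 WT (median 682), with a range of 172 to 377 in Mertk-/-V1 (median 272), without overlap. It was 1205, 783 and 840 in Mertk-/-V2 and 321, 537 and 662 in Mertk-/-V3. The call was lost in 11 of 32 alternatives, among them leaving out B6 WT replicate 1, 2, 3 or 4 or Mertk-/-V1 replicate 1, 5 or 6 (adjusted p between 0.0502 and 0.0678). It was also lost with only the groups compared (0.0565), within replicates 1 to 3 (-1.46, adjusted p = 0.126) and within replicates 4 to 6 (-1.21, adjusted p = 0.557), and with the 3 libraries of low RPE markers left out the difference was -1.14 (adjusted p = 0.0575). The direction was the same throughout. Angptl4 also passed in Mertk-/-V1 against the other knockouts averaged (-1.30, SE 0.25, adjusted p = 0.0460), a call kept in 11 of 29 alternatives. In B6 WT and Mertk-/-V1 it was lower in replicates 4 to 6 than in replicates 1 to 3 (-0.57, SE 0.20, adjusted p = 0.0358). In that comparison 40.8% of all genes tested passed.

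None of 13 tested anti-angiogenic genes, 15 hypoxia genes, 20 endothelial markers, 10 mural cell markers or 8 fibroblast markers passed in RPE in any knockout against B6 WT. The medians of the endothelial list were 0.16, -0.06 and 0.15 for the V1, V2 and V3 knockouts, beside all-gene medians of 0.02, 0.02 and -0.01. For the same knockouts the medians of the RPE list were -0.62, 0.09 and -0.37, and those of the fibroblast list 0.32, 0.38 and 0.11. The macrophage list had medians of 0.85, 0.61 and 0.56 for the V1, V2 and V3 knockouts. None of its 10 markers passed in Mertk-/-V2 or Mertk-/-V3, and 3 passed as higher in Mertk-/-V1. They were the complement genes C1qc (1.11, SE 0.21, adjusted p = 0.0214), C1qa (1.04, SE 0.21, adjusted p = 0.0346) and C1qb (1.02, SE 0.17, adjusted p = 0.00977). The part of macrophage RNA in the levels of the 10 genes was not tested.

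In BMDMs Vegfa was again the most abundant of the 10, at a median of 46.6 TPM (range 33.2 to 59.4), and Kdr came next at 3.37. Serpinf1 (1.86), Angpt2 (1.69) and Cdh5 (1.43) followed, with overlapping ranges. Pecam1 stood at 0.475 and Flt1 at 0.214. Tek had no read in 9 of 12 libraries and at most 3 in any, Pgf had none in 4 and at most 4, and Plvap had none in 1 and at most 6. A count of 0 allows up to 3 reads, an allowance for counting error only. The 2 tissues were normalized separately, so their levels were not tested against each other.

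Vegfa came closest to the threshold of the 10 genes in BMDMs. Its values were 1138, 1104 and 1373 normalized counts for B6 WT, 1379, 1417 and 1716 for Mertk-/-V1, 1682, 1841 and 1137 in Mertk-/-V2 and 1826, 1780 and 1890 in Mertk-/-V3. Mertk-/-V1 and Mertk-/-V3 lay above B6 WT without overlap, in the former narrowly (1379 against 1373), and Mertk-/-V2 replicate 3 lay inside the B6 WT range. The log2 differences were 0.32 (SE 0.14, adjusted p = 0.192), 0.34 (SE 0.14, adjusted p = 0.183) and 0.61 (SE 0.14, adjusted p = 0.0569), and the 3 comparisons share the B6 WT libraries. Over 20 alternatives the Mertk-/-V3 difference was 0.55 to 0.71 with an adjusted p from 0.000877 to 0.241, and it passed under 8 of them. Without Mertk-/-V2 replicate 3 all 3 knockouts passed, with adjusted p of 0.0262, 0.00383 and 0.00136.

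None of the 7 genes tested in BMDMs passed as deposited, beside 7.07% of 13420 genes for Mertk-/-V1, 4.61% for Mertk-/-V2, 1.17% for Mertk-/-V3 and 0.991% for Mertk-/-V1 against the other knockouts averaged. At an unadjusted p under 0.05 the counts were 2, 3 and 2 in the 3 knockouts. The shares of all genes at that unadjusted cut are not given here, so these counts show no excess. At the adjusted threshold DESeq2 called Vegfa in Mertk-/-V3 alone. Of these 7 genes, 2 did not overlap with B6 WT for Mertk-/-V1, 1 for Mertk-/-V2 and 2 for Mertk-/-V3, beside 30.9%, 22.7% and 25.4% of all genes tested, so nothing is read from these counts. Angpt2 lay below B6 WT in Mertk-/-V1 (39.9, 36.0 and 34.9) and Mertk-/-V2 (46.1, 42.4 and 37.0), against 47.7, 59.5 and 62.5 in B6 WT and 65.5, 54.4 and 80.3 in Mertk-/-V3. The Mertk-/-V1 difference of -0.59 (SE 0.19) had an adjusted p of 0.0757.

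Serpinf1 in BMDMs was 22.2, 30.2 and 24.4 in B6 WT and 41.5, 48.0 and 34.5 in Mertk-/-V3, a difference of 0.67 (SE 0.25, adjusted p = 0.204). It was 31.7, 24.0 and 24.7 in Mertk-/-V1 and 48.5, 40.3 and 27.5 in Mertk-/-V2. Kdr was 196 to 241 in B6 WT, 225 to 256 in Mertk-/-V1, 227 to 249 in Mertk-/-V2 and 173 to 221 in Mertk-/-V3. Each knockout overlapped with B6 WT, with 2 libraries above its range in Mertk-/-V1, 2 above in Mertk-/-V2 and 2 below in Mertk-/-V3. Flt1 was 9.08 to 48.0 in 11 libraries and 253 in Mertk-/-V2 replicate 3 alone, the library with the low Vegfa value.

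**Figure D5:**
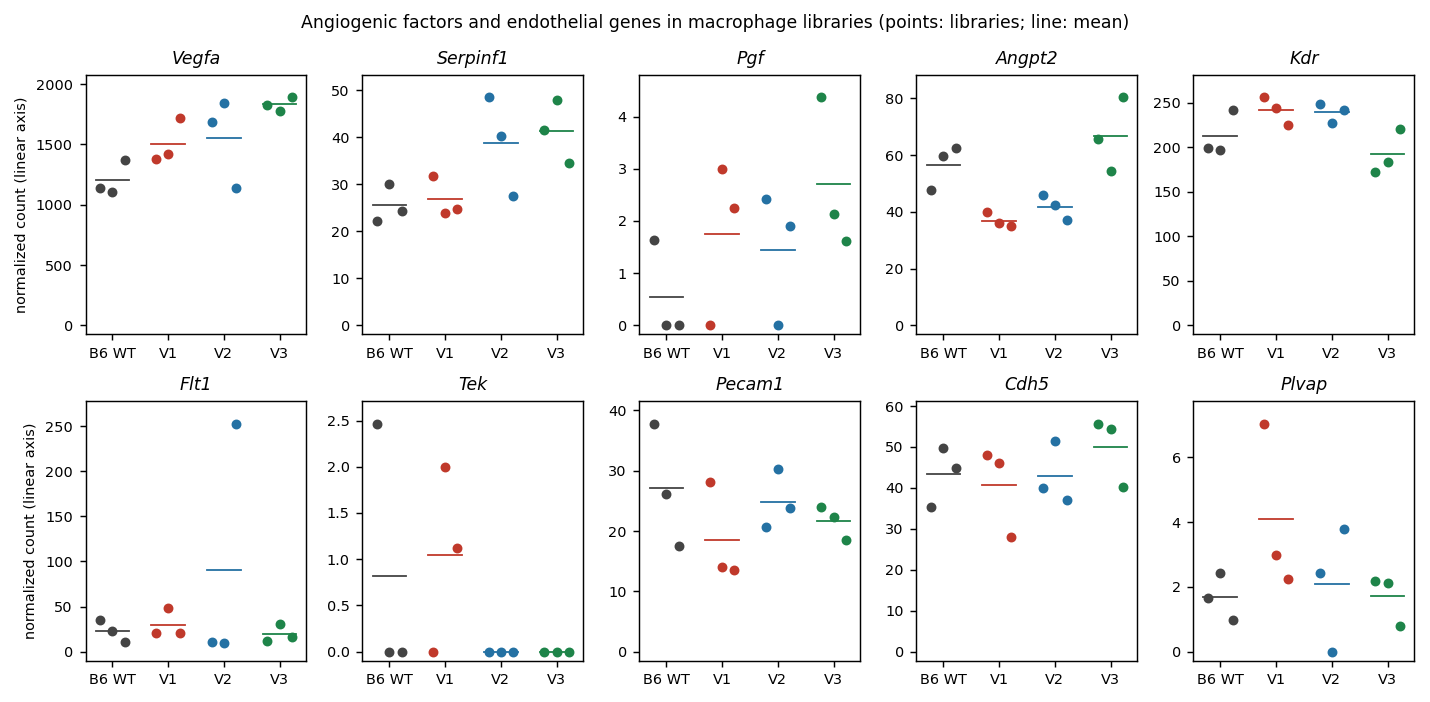
Normalized counts (linear axis from about 0) of the 10 genes in each of the 12 BMDM libraries, with the mean of each genotype as a line. Flt1 reaches 253 in 1 Mertk-/-V2 library and 9.08 to 48.0 in the others, and Vegfa lies at 1780 to 1890 in Mertk-/-V3 against 1104 to 1373 in B6 WT.

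Of 7 tested anti-angiogenic genes, 1 fell and 1 rose in Mertk-/-V1 BMDMs, and none passed in Mertk-/-V2 or Mertk-/-V3. Thbs1, which encodes the anti-angiogenic matrix protein thrombospondin 1, was 115, 152 and 124 normalized counts for Mertk-/-V1 against 350, 381 and 420 for B6 WT. It fell by 1.56 (SE 0.12, adjusted p = 7.0e-06) and passed in 20 of 20 alternatives. It was 294, 340 and 352 in Mertk-/-V2 and 415, 522 and 510 in Mertk-/-V3, and its difference between Mertk-/-V1 and the mean of the other knockouts was -1.61 (adjusted p = 8.9e-07). The effect of Mertk-/-V1 on Thbs1 differed between tissues by 1.73 in RPE minus BMDM (adjusted p = 0.0459). The paper already lists Thbs1 among the chromosome 2 genes changed in Mertk-/-V1 BMDMs. Its qPCR found Thbs1 lower there but not in Mertk-/-V2 or Mertk-/-V3. Chromosome 2 also carries Mertk and the stem-cell-derived segment that Mertk-/-V1 mice keep. The part of that segment in the fall of Thbs1 was not tested. Adamts1, a metalloproteinase that releases anti-angiogenic fragments, rose by 1.54 in Mertk-/-V1 (SE 0.35, adjusted p = 0.0194), with 5.86 to 10.7 normalized counts in 3 B6 WT libraries and 17.6 to 30.4 in 3 Mertk-/-V1 libraries. These counts are low. Adamts1 was 13.1 to 18.2 in Mertk-/-V2, also above the B6 WT range though it did not pass, and 5.62 to 11.7 in Mertk-/-V3. Of 14 tested hypoxia genes 1 rose (Ndrg1) and 3 fell (Egln3, P4ha1 and Pgk1) in Mertk-/-V1, and in Mertk-/-V2 Pgk1 fell.

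Of 20 endothelial markers listed, 3 reached the level tested in BMDMs, and 2 of these rose in Mertk-/-V1, where 7.07% of all genes tested passed. Vwf, the von Willebrand factor gene, rose by 0.76 (SE 0.11, adjusted p = 0.00138), from 781 ± 119 in B6 WT to 1324 ± 190 in Mertk-/-V1 (SD, n = 3), and by 0.49 in Mertk-/-V2 (adjusted p = 0.0252). Eng, a TGF-beta co-receptor, rose by 0.28 in Mertk-/-V1 (SE 0.05, adjusted p = 0.00745), with 1601 to 1776 normalized counts against 1326 to 1428 in B6 WT. It was 1429 to 1575 in Mertk-/-V2 and 1575 to 1629 in Mertk-/-V3, where it did not pass.

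The knockout effects on the 10 genes did not differ between RPE and BMDM past the threshold (edgeR, 1 model over all libraries), where 0.158%, 0.0431% and 0.0192% of 20873 genes did for the V1, V2 and V3 knockouts. The unadjusted p was under 0.05 for 1, 2 and 0 of the 10, counts from which nothing is read without the share of all genes. For Vegfa the RPE effect minus the BMDM effect was -0.60 in Mertk-/-V1 (adjusted p = 0.683), -0.36 in Mertk-/-V2 and -0.29 in Mertk-/-V3.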

How the data were processed

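The authors deposited 1 table for RPE and 1 for BMDMs with 55573 genes each. PolyA RNA was sequenced, trimmed with btrim and aligned with STAR to GRCm38/mm10, and the read counter, annotation and versions are not given in the sources used here. The deposited values are a signal: read counts that the authors divided by DESeq2 size factors. Multiplying back gave whole reads (within 0.001 of a whole number), which served for depth and count models. Gene symbols, lengths and coordinates came from GENCODE release 21 (55480 identifiers matched, 93 did not).

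Genotypes were compared with limma 3.58.1 (R 4.3.3) on log2(value + 1) for genes with a mean of at least 10, all genotypes of a tissue in 1 model, with Benjamini-Hochberg adjustment and a threshold of 0.05. The pseudocount understates changes of low genes. Effects in RPE and BMDM were compared with edgeR 4.0.16 on reads. Correlations carry permutation p-values from 100000 resamples (SciPy 1.17.1), 1e-05 being the smallest possible. The resamples treat all RPE libraries as exchangeable across genotypes and sets of replicates. Alternatives were another pseudocount, no filter, only the groups compared, quantile normalization, array weights, edgeR, DESeq2 1.42.0, a replicate block, covariates, subsets of replicates and each library left out. The rod covariate for the replicate sets, the libraries of low RPE markers left out, the level without Kdr and the list correlations were chosen after seeing the data. The 10 genes and the 13 lists were chosen with earlier results of these data known. Other genes were named when among the 4 largest changes past the threshold in a list, or the 5 closest by r, of which 1 gene close to Vegfa is not reported here. Scripts were tested on simulated data. In RPE, deviations from the group means correlated at 0.12 to 0.72 in the 6 same-numbered pairs of B6 WT with Mertk-/-V1. Differently numbered pairs within a set of replicates reached as high, with 0.62 and 0.67 for B6 WT replicate 1 and Mertk-/-V1 replicates 2 and 3. Other such pairs fell to -0.18. These values therefore do not show pairing by number, and the labels give none. Same-numbered pairs with Mertk-/-V2 or Mertk-/-V3 ranged from -0.46 to 0.59.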

Additional observations from a re-analysis of the deposited data

Results flagged for a closer look

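In B6 WT RPE, replicate 1 had 741.4 normalized counts of Serpinf1, below the next lowest library at 981.6. This gap was 0.694 of the range of the group of 6, above Dixon's critical value. It was the only such library among the 20 groups tested, and chance gives about 1 in 20.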

How the results depend on the processing

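Of the recomputed counts of called genes and relations, 207 stayed at the value reported or within 1.5 times of it and 20 did not. In RPE, Mertk-/-V3 against B6 WT went from 0 called genes to 7 with array quality weights, and Mertk-/-V1 against the mean of the other knockouts from 0 to 1. Replicates 4 to 6 against 1 to 3 went from 3 to 0 with the rod covariate and to 5 without Mertk-/-V1 replicates 5 and 6, and ranged from 2 to 3 with each library left out. In that comparison Plvap reversed from 0.17 to -0.30 (adjusted p = 0.0162) with the endothelial list as a covariate. In BMDMs array weights gave 2 called genes for Mertk-/-V1, 1 for Mertk-/-V2 and 1 for Mertk-/-V3, and quantile normalization, DESeq2 and the groups compared alone gave 1 each in Mertk-/-V3. With each BMDM library left out, the counts ranged from 0 to 1 in each of the 3 knockouts. Mertk-/-V1 and Mertk-/-V2 reached 1 without Mertk-/-V2 replicate 3, and Mertk-/-V3 reached 1 without B6 WT replicate 3 or Mertk-/-V2 replicate 1, 2 or 3. The RPE minus BMDM count went from 0 to 1 without RPE replicates 4 to 6 (Kdr in Mertk-/-V3). Relations with the endothelial level past the threshold rose from 2 to 4 with genotype means subtracted or Kdr left out. The relations gained were those of Serpinf1 and Pgf in each setting. The cause was not tested.

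Same-numbered libraries correlated at -0.30 to 0.36 in BMDMs, and the labels of neither tissue pair libraries by number. The replicate block called 2 of the 10 genes in RPE of Mertk-/-V3 and changed no other count of the 10 by over 1.5 times.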

Other observations

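One BMDM library, Mertk-/-V2 replicate 3, held 33 genes more than 1 log2 unit above the highest of the other 11 libraries, against 0 or 1 in each of those. Flt1 ranked 5 of 13420 genes by this gap. These genes were chosen after their values were seen. Olfml3 was at 251 normalized counts against 1.09 to 35.9 elsewhere, Id3 at 368 against 4.85 to 59.2, Cspg4 at 494 against 18.2 to 112 and Cx3cr1, the fractalkine receptor, at 2468 against 106 to 913. Id1 and Smad6, targets of BMP signalling, were at 835 and 325 against at most 241 and 99.5. Why this library stands apart was not tested.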
